A study of Mus musculus with 8 samples.

Results

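The 10 genes described here encode enzymes that break down the branched-chain amino acids leucine, isoleucine and valine, together with the kinase that holds the pathway back. They were taken by symbol (Bcat1, Bcat2, Bckdha, Bckdhb, Dbt, Bckdk, Ivd, Mccc1, Hibch and Hibadh), and all 10 were found among the 22173 genes of the table. Each was measured in heart tissue of C57BL/6J mice whose left anterior descending coronary artery had been tied off, which infarcts the left ventricular wall. Vehicle was the treatment in 4 libraries and DAPA in the other 4. DAPA is the usual short name of dapagliflozin, an inhibitor of the renal glucose transporter SGLT2, and was dosed at 1 mg/kg per day for 4 weeks from surgery. All libraries therefore come from infarcted hearts, and no unoperated or sham group was analysed here. The labels give neither sex, age nor the part of the heart taken, and nothing says that each library is a separate animal, so p-values measure the spread between libraries.

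Branched-chain amino acids are first stripped of their amino group by an aminotransferase, cytosolic (Bcat1) or mitochondrial (Bcat2). The resulting keto acids are oxidised in the mitochondrion by the branched-chain keto acid dehydrogenase complex, which a kinase (Bckdk) switches off by phosphorylation and a phosphatase (Ppm1k) switches on again. The 3 products then follow separate arms, which end in acetyl-CoA, acetoacetate or propionyl-CoA. In heart muscle the pathway is known as a minor source of fuel and as a control on the level of leucine, which activates the growth kinase mTOR.

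Expression is given as FPKM, which divides the fragments of a gene by its length and by the library's total, and group values are mean ± SD over 4 libraries. Whole reads could be worked back from the FPKM values, at 24969690 to 26801254 per library. Each of the 10 genes apart from Bcat1 rested on 834 to 9595 reads in a library. The libraries differed in cell type markers. The summed FPKM of 12 atrial markers was 8085 to 9024 in vehicle and 12882 to 13586 in DAPA libraries, and 9 of the 11 tested were called higher and none lower. That of 13 adipocyte markers was 2908 to 3183 in vehicle and 2422 to 2519.8 in DAPA libraries, with 11 of 12 tested lower and none higher. For 12 heart muscle markers the sums were 35053 to 35558 and 32204 to 34386, with 1 higher and 3 lower. They were listed as ventricular, but the list holds genes that atrial muscle also expresses, among them Myh6, Tnnt2 and Ttn. For 10 nuclear genes of mitochondria they were 6500.4 to 6679 and 6482 to 6769.9, which overlap, with 3 higher and none lower. Endothelial markers summed to 379 to 403 in vehicle and 460.0 to 479 in DAPA libraries, with 6 of 8 higher and 1 lower. The 5 smooth muscle markers summed to 1181 to 1234.3 in vehicle and 1094 to 1127 in DAPA libraries. Of these, 3 were called higher (Myh11, Tagln and Cnn1) and 1 lower (Des, which heart muscle also expresses). That sum thus ran against most of its calls. The sums of fibroblast (3228 to 3306 and 3268 to 3506), macrophage (971 to 1165 and 1036 to 1129) and skeletal muscle markers (2715 to 2836 and 2559 to 2789) overlapped between groups. Among these, 2 of 10 fibroblast markers were higher and 4 lower, 3 of 10 macrophage markers higher and 2 lower, and 1 of 4 tested skeletal muscle markers higher and none lower. Of the skeletal muscle list, Ckm is also on the heart muscle list. None of the markers was at 0 in every library. The part of the markers in the results below was not tested, and in such bulk tissue fewer cells of a type cannot be told apart from less RNA per cell.

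The 10 genes differed little in level between DAPA and vehicle libraries. The 9 genes that reached a mean of 1 FPKM in a group were tested within a fit across 11496 genes (limma-trend on log2(FPKM + 1), Benjamini-Hochberg adjusted p below 0.05). Of the 9, Ivd alone passed, higher with DAPA, and none was lower. Over all tested genes 18.4% passed, 9.62% higher and 8.75% lower, so 1 of 9 (11.1%) is no more than the background. The 9 log2 changes lay between -0.14 and 0.13, with a median of -0.02 beside 0.01 for all tested genes. At an unadjusted p below 0.05, 2 were higher (Ivd, Mccc1) and 2 lower (Bcat2, Dbt), where 31.3% of all tested genes reached that level. limma voom on the recovered reads called 2 of the 9, Ivd higher and Bcat2 lower, where it called 22.4% of all genes. The authors' deposited table likewise has q below 0.05 for 2 of the 10, Ivd with a ratio of DAPA over vehicle of 1.09 (q = 0.0102) and Bcat2 with a ratio of 0.922 (q = 0.0197), where 17.4% of 15527 genes in the authors' deposited table reach it.

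**Figure D1:**
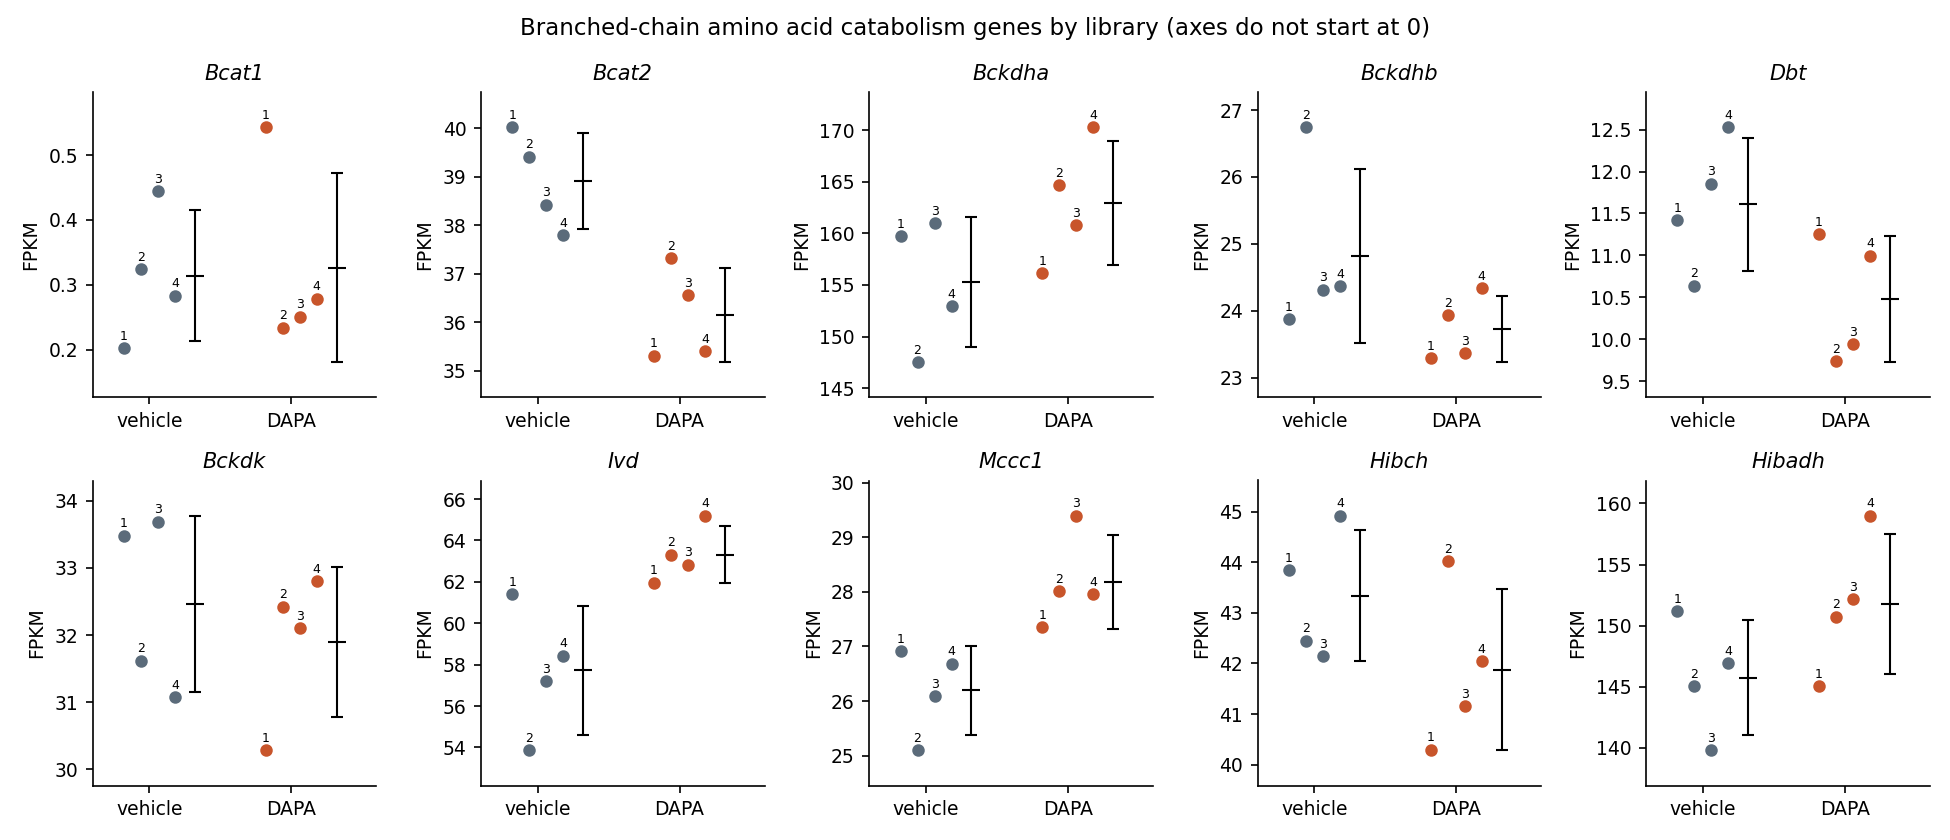
FPKM (y axis, each panel on its own scale) of the 10 genes in the vehicle and DAPA libraries; points are libraries numbered 1 to 4, and the bar beside them is the mean ± SD. Bcat2 lies lower in the DAPA libraries (35.3 to 37.3 against 37.8 to 40.02) and Ivd higher (62.0 to 65.2 against 53.9 to 61.4), while most other genes overlap between groups.

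The DNA upstream of the transcription start is shown for Ivd, the gene that passed, and for Bcat2, whose call depended on the settings (chosen after its values were seen). Both stretches are from RefSeq on GRCm38.p6, read 5′ to 3′ on the plus strand, at chr2:118861744-118861943 for Ivd and chr7:45569903-45570152 for the first of the 2 listed starts of Bcat2. The Ivd stretch of 200 bases stops short of its RefSeq start, and the Bcat2 stretch of 250 bases runs up to it. Capitals mark the motif CACCC or its reverse complement GGGTG, letters that zinc finger factors of the KLF family are known to bind. A member of that family, Klf15, is described further on.
Ivd: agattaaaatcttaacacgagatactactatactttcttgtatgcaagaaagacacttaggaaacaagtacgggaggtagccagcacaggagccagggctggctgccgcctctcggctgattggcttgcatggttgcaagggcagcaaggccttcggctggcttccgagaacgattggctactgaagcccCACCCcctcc
Bcat2: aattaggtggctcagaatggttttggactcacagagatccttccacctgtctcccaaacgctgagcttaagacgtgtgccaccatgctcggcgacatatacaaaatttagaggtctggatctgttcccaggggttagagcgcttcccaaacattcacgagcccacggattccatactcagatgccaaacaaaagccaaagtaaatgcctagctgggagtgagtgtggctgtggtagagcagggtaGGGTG
The Ivd stretch holds 1 match, which begins 60 bases before the RefSeq start, and the Bcat2 stretch 1, which begins 5 bases before it. At the second listed start of Bcat2, which is not shown, there were 0 matches within 250 bases upstream. Promoters were listed for 9 of the 10 genes (all but Dbt), with 12 starts, of which 8 (66.7%) held the motif on either strand within 250 bases upstream. Of all 32851 listed promoters 52.0% held it, so a match is common and is given as a description only.

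Most of the aminotransferase RNA was of the mitochondrial form. Bcat2 (NCBI Gene 12036), the main aminotransferase of heart and skeletal muscle, measured 40.02, 39.4, 38.4 and 37.8 FPKM in vehicle libraries 1 to 4 and 35.3, 37.3, 36.6 and 35.4 in DAPA libraries 1 to 4. Every DAPA library lay below every vehicle library, which was the case for 9.99% of all tested genes. The groups were separate in 3 of the 9 tested genes (Bcat2 lower, Ivd and Mccc1 higher) and in 22.1% of all tested genes in either direction. The means were 38.9 ± 0.994 and 36.2 ± 0.967, a ratio of vehicle over DAPA of 1.08. This difference missed the threshold (log2 change -0.10, SE 0.03, 95% interval -0.18 to -0.03, limma adjusted p = 0.0550). It passed, still lower, with no filter on low values, after median-of-ratios or quantile scaling, with limma voom and without DAPA library 2, the highest of its group (adjusted p = 0.0494). Over all 17 alternatives the adjusted p lay between 0.0209 and 0.135.

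Bcat1 (12035), the cytosolic form, was nearly missing from these hearts. It measured 0.203, 0.324, 0.445 and 0.284 FPKM in the vehicle libraries and 0.543, 0.234, 0.251 and 0.279 in the DAPA libraries, on 48 to 128 reads each. DAPA library 1 stood above the other libraries and the groups overlapped. The means, 0.314 ± 0.101 and 0.327 ± 0.145, were below the minimum for testing. With the minimum lowered to 0.1 FPKM, the log2 change was 0.01 (limma adjusted p = 0.950). The level of Bcat1 was 0.00507 to 0.0116 of that of Bcat2 in vehicle libraries and 0.00627 to 0.0154 in DAPA libraries, which overlap.

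The subunits of the dehydrogenase complex differed far more from each other than between treatments. Bckdha (12039), the alpha chain of the decarboxylase E1 and the target of the kinase, measured 159.7, 148, 161 and 153 FPKM in the vehicle libraries and 156, 165, 161 and 170.3 in the DAPA libraries. The groups overlapped (155 ± 6.26 and 163 ± 6.01; log2 change 0.07, 95% interval -0.01 to 0.15, limma adjusted p = 0.219). Bckdha overlaps B3gnt8, a gene on the opposite strand, at 6.40 to 9.17 FPKM in vehicle and 4.93 to 6.05 in DAPA libraries, and it is not stated whether strand was used in counting.

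Bckdhb (12040), the beta chain of E1, stood at 23.9, 26.7, 24.3 and 24.4 FPKM in the vehicle libraries and at 23.3, 23.9, 23.4 and 24.3 in the DAPA libraries. Vehicle library 2 was the high value, and the remaining vehicle libraries lay within or next to the DAPA range (log2 change -0.06, 95% interval -0.15 to 0.03, adjusted p = 0.352). Dbt (13171), the E2 core that carries the lipoyl arm, was the lowest of the subunits, with 11.4, 10.6, 11.9 and 12.5 FPKM in the vehicle and 11.3, 9.74, 9.94 and 10.99 in the DAPA libraries. DAPA libraries 1 and 4 lay above vehicle library 2. The log2 change of Dbt, -0.14 (SE 0.06, 95% interval -0.26 to -0.01), was the largest in size among the tested genes of the set and did not pass (adjusted p = 0.140). It also had the widest spread of the tested genes, a coefficient of variation of 6.82% in vehicle and 7.19% in DAPA libraries, where counting noise alone gives 3.24%.

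Ratios of RNA level between subunits of the complex were taken within each library, and the amounts of protein were not measured. Bckdha stood at 6.69, 5.52, 6.62 and 6.28 times the FPKM of Bckdhb in the vehicle libraries and at 6.70, 6.88, 6.88 and 6.997 times in the DAPA libraries. These groups do not overlap, by a margin of vehicle library 1 at 6.69 against DAPA library 1 at 6.70. Bckdha over Dbt was 12.2 to 14.0 in vehicle and 13.9 to 16.9 in DAPA libraries, and overlapped. The ratios are of 2 genes each, given with no test and without the share of all gene pairs that separate the groups.

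The kinase did not pass the test. Bckdk (12041), which inactivates the complex by phosphorylating the E1 alpha chain, measured 33.5, 31.6, 33.7 and 31.1 FPKM in the vehicle libraries and 30.3, 32.4, 32.1 and 32.8 in the DAPA libraries. The highest libraries were vehicle libraries 1 and 3, the lowest was DAPA library 1, and the groups overlapped. The means were 32.5 ± 1.31 and 31.9 ± 1.12 (log2 change -0.02, limma adjusted p = 0.734), and the 95% interval runs from a factor of 0.926 to 1.04 of DAPA over vehicle on the FPKM + 1 scale. Ppm1k, the opposing phosphatase, measured 5.94 ± 0.29 and 6.25 ± 0.149 (adjusted p = 0.438). Kinase over phosphatase was 5.05 to 6.00 in vehicle and 4.69 to 5.36 in DAPA libraries. The kinase relative to its target, Bckdk over Bckdha, was 0.210, 0.214, 0.209 and 0.203 in vehicle and 0.194, 0.197, 0.200 and 0.193 in DAPA libraries, with no overlap between groups. Neither gene of that pair passed by itself. This ratio of RNA levels was not tested, and the share of all gene pairs that separate the groups was not computed.

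**Figure D2:**
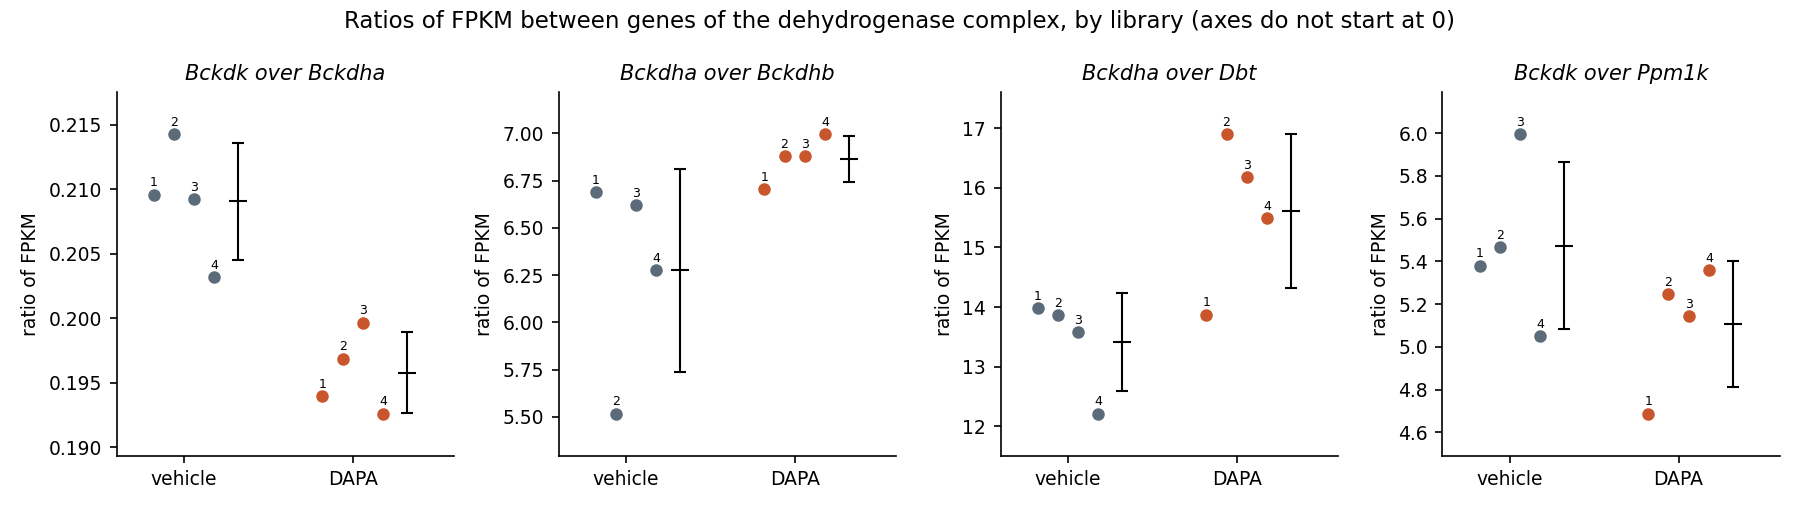
Ratio of FPKM (y axis, not from 0) between pairs of genes of the dehydrogenase complex and its regulators in each vehicle and DAPA library; points are libraries numbered 1 to 4, and the bar beside them is the mean ± SD. Bckdk over Bckdha is lower in the DAPA libraries (0.193 to 0.200 against 0.203 to 0.214), and Bckdk over Ppm1k overlaps between groups. The ratios were not tested.

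In the leucine arm both measured enzymes were higher with DAPA in every library, and Ivd passed the test. Ivd (56357), isovaleryl-CoA dehydrogenase, which takes the first step after the complex, measured 61.4, 53.9, 57.2 and 58.4 FPKM in the vehicle libraries and 62.0, 63.3, 62.8 and 65.2 in the DAPA libraries. The groups were separate, though vehicle library 1 came within 1 FPKM of DAPA library 1. From 57.7 ± 3.12 to 63.3 ± 1.37, the rise was 1.10-fold (log2 change 0.13, SE 0.04, 95% interval 0.05 to 0.22, adjusted p = 0.0338). The call was fragile. It was lost in 6 of the 8 fits that leave out 1 library, at adjusted p = 0.0730, 0.0743 and 0.0566 without vehicle libraries 2, 3 and 4 and 0.0677, 0.0643 and 0.0949 without DAPA libraries 2, 3 and 4. It was also lost with no filter on low values and with the replicate numbers as a block (adjusted p = 0.0582). Over all 17 alternatives the adjusted p lay between 0.00904 and 0.0949 and the change stayed positive.

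Mccc1 (72039), the biotin-bearing chain of methylcrotonyl-CoA carboxylase and the next step after Ivd, measured 26.9, 25.1, 26.1 and 26.7 FPKM in the vehicle libraries and 27.4, 28.0, 29.4 and 28.0 in the DAPA libraries. Every DAPA library was above every vehicle library, as in 12.1% of all tested genes. The difference between 26.2 ± 0.81 and 28.2 ± 0.861 did not pass (log2 change 0.10, SE 0.04, 95% interval 0.02 to 0.18, limma adjusted p = 0.0815). Its partner chain Mccc2 measured 23.4 ± 2.06 and 23.5 ± 1.19 (log2 change 0.00, 95% interval -0.12 to 0.13, adjusted p = 0.969). Auh, the hydratase that follows the carboxylase, did not pass either (log2 change -0.07, adjusted p = 0.363).

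In the valine arm neither enzyme of the set passed. Hibch (227095), which frees 3-hydroxyisobutyrate from coenzyme A, measured 43.8, 42.5, 42.1 and 44.9 FPKM in the vehicle libraries and 40.3, 44.0, 41.2 and 42.0 in the DAPA libraries (log2 change -0.05, 95% interval -0.13 to 0.03, adjusted p = 0.409). DAPA library 2 lay among the vehicle libraries, and the rest below them. Hibadh (58875), which oxidises 3-hydroxyisobutyrate, measured 151, 145, 139.8 and 147 FPKM in the vehicle libraries and 145, 151, 152 and 159 in the DAPA libraries. DAPA library 4 was the highest, and the groups overlapped (log2 change 0.06, 95% interval -0.02 to 0.13, adjusted p = 0.290).

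Ranked by level, the order of the 10 genes was the same in both groups: Bckdha, Hibadh, Ivd, Hibch, Bcat2, Bckdk, Mccc1, Bckdhb, Dbt and Bcat1. Bckdha and Hibadh overlapped in range in both groups, and so did Mccc1 and Bckdhb in vehicle libraries (25.1 to 26.9 and 23.9 to 26.7 FPKM), while the other neighbours in the order were separate. FPKM is a level per length of the gene model the authors used. On this scale Bckdha exceeded 96.0% and Hibadh 95.8% of the tested genes, and Dbt 58.5%.

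**Figure D3:**
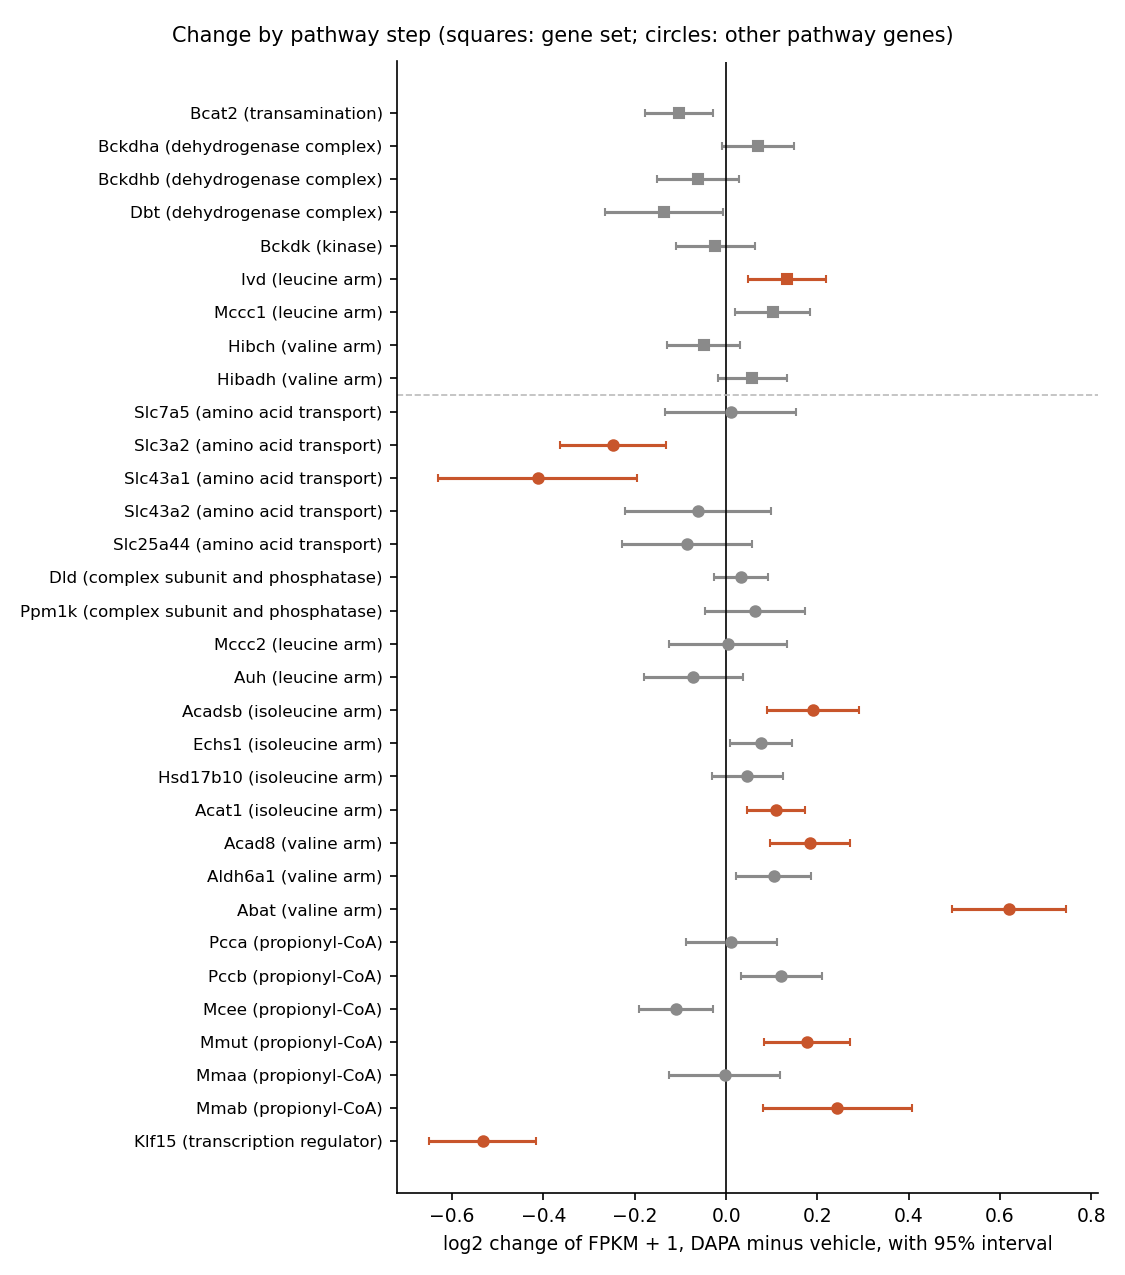
Change with DAPA (x axis, log2 of FPKM + 1, DAPA minus vehicle) for the tested genes of the set (squares) and for the other genes of the pathway reported here (circles), with 95% intervals; orange marks an adjusted p below 0.05. The squares lie between -0.14 and 0.13, while among the circles Abat stands at 0.62 and Klf15 at -0.53.

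The rest of the pathway was described from a list of 25 genes for transport, the remaining steps and a regulator, of which 24 were tested. 6 rose and 3 fell, or 37.5%, beside 18.4% of all tested genes, with a median log2 change of 0.02 beside 0.01. The calls, though not all changes, divided by role. All 6 that rose were among the 18 enzymes and subunits (33.3%, beside 9.62% higher over all tested genes), of which none passed as lower, though Mcee lay lower without overlap. The 3 that fell were 2 of the 5 tested transporters and the regulator, beside 8.75% lower over all tested genes. None of the 3 listed leucine arm enzymes passed. Of the 9 tested genes of the set, 1 passed as higher (Ivd) and none as lower, so the division does not extend to every step.

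In the isoleucine arm 2 of the 4 listed enzymes rose, and in the valine arm 2 of the 3 listed here. None passed as lower in either, beside 9.62% higher and 8.75% lower over all tested genes. Hibch and Hibadh, the valine arm enzymes of the set, are not among those 3 and did not pass. Acadsb, the dehydrogenase that follows the complex in the isoleucine arm, rose from 35.5 ± 2.31 to 40.6 ± 1.45 FPKM (log2 change 0.19, SE 0.05, limma adjusted p = 0.0128). Its values were 33.0, 34.2, 37.3 and 37.7 in vehicle and 42.0, 40.5, 38.7 and 41.4 in DAPA libraries, without overlap. Acat1, the thiolase that closes that arm and also handles ketone bodies, rose from 130.4 ± 4.12 to 141 ± 1.33 (adjusted p = 0.0214, and 0.0625 without DAPA library 4). Echs1, the hydratase shared with fatty acid oxidation and the most abundant gene of that arm, measured 188 ± 7.48 and 198 ± 1.82 and did not pass (adjusted p = 0.112).

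Acad8, isobutyryl-CoA dehydrogenase of the valine arm, rose from 16.7 ± 0.351 to 19.0 ± 0.759 FPKM (log2 change 0.18, adjusted p = 0.00661). Its DAPA libraries, at 18.3 to 20.1, lay above the vehicle libraries at 16.4 to 17.1. Aldh6a1, which turns the semialdehyde made by Hibadh into propionyl-CoA and is the most abundant of the 3 listed, measured 36.8 ± 1.57 and 39.7 ± 0.958 (adjusted p = 0.0762).

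Among the 24 tested genes of this list, Slc43a1 had the largest ratio of means (1.85, vehicle over DAPA). On the log2(FPKM + 1) scale Abat showed the largest change. This aminotransferase is best known for breaking down the neurotransmitter GABA and also acts on semialdehydes and amino acids linked to the valine arm. It measured 3.85, 3.56, 3.98 and 3.74 FPKM in the vehicle libraries and 6.53, 6.39, 6.72 and 5.79 in the DAPA libraries, a 1.68-fold rise (log2 change 0.62, SE 0.06, 95% interval 0.49 to 0.74, limma adjusted p = 6.6e-06). It passed under all 17 alternatives. In the same libraries the 12 atrial markers summed to 12882 to 13586 FPKM with DAPA against 8085 to 9024, and their part in this rise was not tested.

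**Figure D4:**
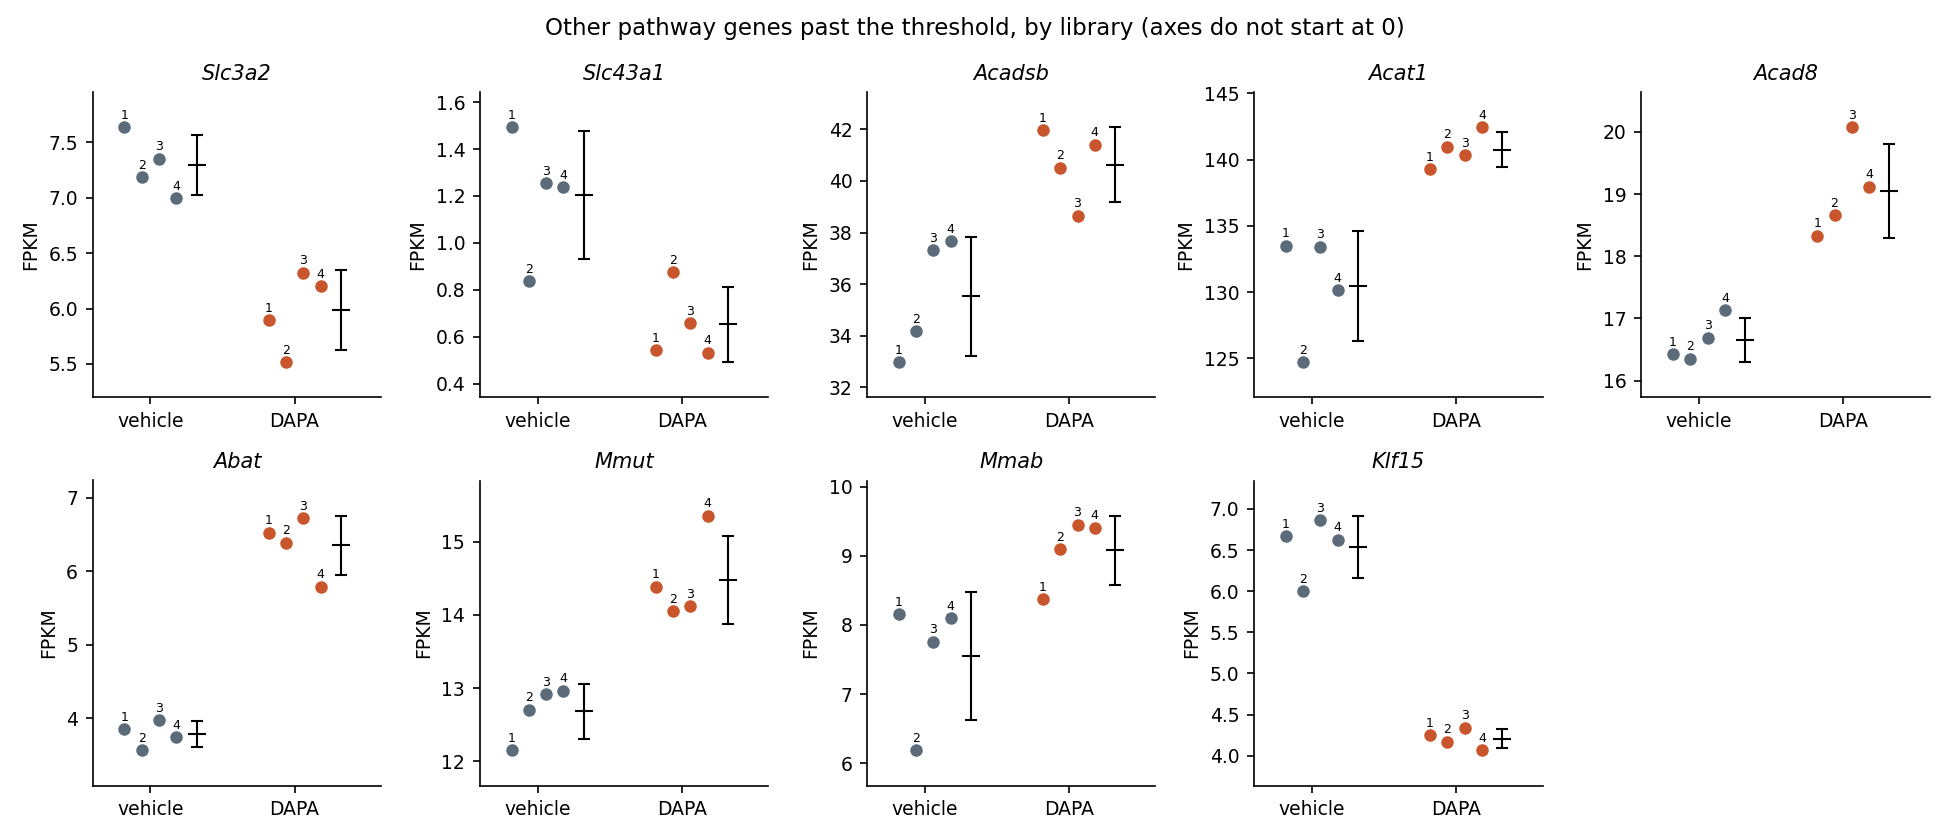
FPKM (y axis, each panel on its own scale) of the 9 other pathway genes that passed the test, in the vehicle and DAPA libraries; points are libraries numbered 1 to 4, and the bar beside them is the mean ± SD. Abat and Klf15 are widely separate between groups (5.79 to 6.72 against 3.56 to 3.98, and 4.06 to 4.34 against 6.00 to 6.87), while Slc43a1 overlaps through vehicle library 2 at 0.837.

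Of the 6 genes that carry propionyl-CoA into the citric acid cycle, 2 rose and none passed as lower, beside 9.62% and 8.75% of all tested genes. Mmut, the mutase that makes succinyl-CoA, rose from 12.7 ± 0.375 to 14.5 ± 0.604 FPKM (adjusted p = 0.0128). Mmab, which makes the cobalamin cofactor of that mutase, rose from 7.55 ± 0.927 to 9.08 ± 0.499 (adjusted p = 0.0392), a call that was lost without vehicle library 2 or 3 or DAPA library 2, 3 or 4 (adjusted p = 0.0647, 0.0581, 0.0779, 0.0953 and 0.0943) with the lower minimum or none (0.0528 and 0.0983) and with the replicate block (0.0524). Mcee, the epimerase and the most abundant of the 6, measured 128 ± 6.88 and 119 ± 2.38 (log2 change -0.11, adjusted p = 0.0601). Its DAPA libraries, at 115 to 121, lay below the vehicle libraries, at 122 to 137, and its q in the authors' deposited table is 0.0489.

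At the plasma membrane, transport genes were lower or did not pass. Slc3a2, the heavy chain that brings the leucine carrier Slc7a5 to the cell surface and the most abundant of the 6 listed, fell from 7.29 ± 0.272 to 5.98 ± 0.36 FPKM (log2 change -0.25, SE 0.05, limma adjusted p = 0.00576). Its DAPA libraries, 5.52 to 6.33, lay below the vehicle libraries, 6.997 to 7.64. Slc7a5 itself measured 2.27 ± 0.177 and 2.29 ± 0.168 (95% interval of the log2 change -0.13 to 0.15, adjusted p = 0.943). Slc43a1, a carrier for large neutral amino acids, fell from 1.21 ± 0.272 to 0.652 ± 0.16 (log2 change -0.41 on the FPKM + 1 scale, adjusted p = 0.0125; ratio of means, vehicle over DAPA, 1.85). With a pseudocount of 0.01 its log2 change was -0.88. Those values rest on 53 to 149 reads a library. Slc25a44, the mitochondrial carrier of branched-chain amino acids, measured 3.74 ± 0.0514 and 3.48 ± 0.383 (adjusted p = 0.419). Dld, the E3 subunit that the complex shares with pyruvate dehydrogenase, measured 166 ± 2.84 and 169 ± 3.35 (adjusted p = 0.456).

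Klf15 (66277), a zinc finger transcription factor known in mouse muscle to drive Bcat2 and other genes of amino acid breakdown, was lower in the DAPA libraries. It measured 6.67, 6.00, 6.87 and 6.63 FPKM in the vehicle libraries and 4.25, 4.17, 4.34 and 4.06 in the DAPA libraries. The groups were far apart. The fall from 6.54 ± 0.377 to 4.21 ± 0.118 (log2 change -0.53, SE 0.05, 95% interval -0.65 to -0.42, limma adjusted p = 1.4e-05) was 1.56-fold and passed under all 17 alternatives. In the same 8 libraries Bcat2 differed by -0.10 and did not pass, and Ivd by 0.13. Adipocyte markers were lower in these libraries as well (summed FPKM 2422 to 2519.8 against 2908 to 3183), and their part in the fall of Klf15 was not tested.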

How the data were processed

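RNA of 8 heart libraries (4 vehicle, 4 DAPA) was taken up in TRIzol, made into stranded mRNA libraries and read in pairs, with Trimmomatic for trimming, per the labels' protocols. HISAT2, SAMtools, StringTie, Cufflinks, HTSeq and DESeq are named without versions or roles, with the human build GRCh38, per the submitters' processing notes; the table's symbols and identifiers are of mouse genes, so the build behind the values is unclear. All 10 identifiers of the set matched mouse RefSeq (GRCm38.p6), used for names and promoters only. The FPKM values were computed by the authors per library, with no pooling, and the unit was read from the values. The deposited table also holds the authors' ratio (fold change) of DAPA over vehicle, and the q-value was computed by the authors.

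FPKM values are whole multiples of a step per gene. Reads came back whole for 17356 of 17356 genes above 0 (tolerance 0.0001 reads). They served for depth and for limma voom. No 2 libraries of a group were alike within sampling noise (chi-square over degrees of freedom at least 3.59 in 12 pairs).

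limma-trend (limma 3.58.1, R 4.3.3) was run on log2(FPKM + 1) for genes with a mean FPKM of 1 or more in a group, with group as the only term and Benjamini-Hochberg adjustment over all genes tested. The pseudocount of 1 understates changes of low genes. The fit was tested on simulated data. The 17 alternatives were 2 pseudocounts (0.1, 0.01), 2 filters, 2 scalings, limma voom, robust variances, a replicate block and leaving out each of 8 libraries. All 10 genes of the set are named, and of the other 25 those past the threshold and the most abundant of each step; a few genes are not reported here. The genes, lists and ratios were chosen with earlier results of these data known.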

Additional observations from a re-analysis of the deposited data

Results flagged for a closer look

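In 4 of 70 groups of 4 libraries (35 pathway genes, 2 treatments), 1 library lay far from the other 3, where chance alone gives about 1 group in 20. Bcat1 stood at 0.543 FPKM in DAPA library 1, on 128 reads, against 0.234 to 0.279 in the other DAPA libraries. Bckdhb stood at 26.7 FPKM in vehicle library 2, just past the limit. Hsd17b10, a dehydrogenase of the isoleucine arm, stood at 153 FPKM in vehicle library 2. Pccb, the beta chain of propionyl-CoA carboxylase, stood at 47.4 FPKM in vehicle library 4. None of these genes passed the test between treatments.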

How the results depend on the processing

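The number of genes of the set called higher, 1, became 0 with no filter on low values and 0 with the replicate block, and 0 to 1 when leaving out 1 library. The number called lower, 0, became 1 (Bcat2) with no filter, median-of-ratios scaling, quantile normalization and limma voom, and 0 to 1 when leaving out 1 library; the cause was not tested. All 9 tested genes of the set kept the sign of their log2 change in all 17 alternatives. The counts of other pathway genes, 6 higher and 3 lower, ranged from 4 to 8 and from 3 to 4. Over all genes, 1106 higher and 1006 lower became 906 and 858 with the replicate block. Over all tested genes, deviations of same-numbered libraries correlated at -0.06, -0.04, 0.01 and -0.01, and those of other pairs at -0.03 to 0.06. These values show no sign of pairing by replicate number, but cannot exclude a pairing that touches few genes. Bcat1 rests on 48 to 128 reads a library, which limits its precision.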

Other observations

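The authors' annotation assigns 57 genes to the KEGG pathway of valine, leucine and isoleucine degradation, among them 9 of the 10 genes of the set (all but Bckdk). Of the 44 that were tested, 9 rose and 2 fell (25.0%, beside 18.4% of all tested genes; limma-trend), with a median log2 change of 0.04. This list was consulted after the data had been seen. Among the called genes not described above, 4 are given here, named after their values were seen. Aldh1b1, a mitochondrial aldehyde dehydrogenase, rose from 5.82 ± 0.344 to 10.96 ± 0.256 FPKM (mean ± SD, n = 4 each; log2 change 0.81, limma adjusted p = 1.5e-07). Aldh2, which clears acetaldehyde and lipid aldehydes, rose from 85.4 ± 1.02 to 95.003 ± 0.951 (limma adjusted p = 0.00142). Ehhadh, a peroxisomal enzyme of fatty acid oxidation, fell from 4.52 ± 0.431 to 3.20 ± 0.0527 (limma adjusted p = 8.3e-04), and Aacs, which activates acetoacetate for lipid synthesis, from 4.12 ± 0.455 to 2.91 ± 0.339 (limma adjusted p = 0.00436). The atrial and adipocyte markers differ between the same libraries, and their part in these changes was not tested.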
